A study of Arabidopsis thaliana with 4 samples.

Results

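The purple acid phosphatase (PAP) genes and 4 nuclease genes of Arabidopsis thaliana roots were described, as measured by RNA sequencing at high and at low phosphate. The 33 members were set by family and gene identifier, with earlier results of these data known. They are the 29 genes of the PAP1 to PAP29 numbering, the ribonuclease genes RNS1, RNS2 and RNS3, and the nuclease gene BFN1, out of 27655 genes in the deposited table. All 33 had a row in the table and an entry in the RefSeq annotation, TAIR10.1. Wild-type Columbia (Col-0) seedlings had grown for 8 days in Murashige and Skoog medium with 625 µM phosphate (plus_Pi, 2 libraries) or 5 µM phosphate (low_Pi, 2 libraries). The labels call the 5 µM group grown without phosphate, and the name of the deposited table adds that the roots were dark grown, which no sample label states. The wider study asked what cis-zeatin, a cytokinin, does in root responses to phosphate starvation.

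Plants take up phosphorus as inorganic phosphate, while much of the phosphorus in soil and in old cells is bound in organic compounds. Purple acid phosphatases are metal-containing enzymes that release phosphate from phosphate esters, and several are secreted to the root surface or the surrounding medium when phosphate is short. Ribonucleases of the T2 family, called S-like because they resemble the S-RNases of flower self-incompatibility, break RNA into nucleotides from which phosphatases can free phosphate. BFN1 belongs to another family, the S1-type nucleases, which cut RNA and single-stranded DNA, so it is no S-like ribonuclease. Transcription of many phosphate starvation genes depends on PHR1, a factor that binds a short palindromic motif.

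The values are whole numbers called normalized counts. They are given below as deposited. Column totals lay between 38831704 and 44635953. Averaged over genes and taken as read counts, the columns within a group were closer to each other than read sampling allows. With a common ratio per pair, the mean chi-square per gene was 0.280 for low_Pi and 0.435 for plus_Pi, where independent read counts give about 1. This chi-square changes with the scale of the values, and the normalization is not stated, so the reason for the low values was not tested. Each group was therefore counted as 1 sample, no p-value or SD is given, and differences have no replicate check. The plus_Pi columns were not alike for all members, and PAP17, with 759 and 1123, had a chi-square of 40.1 between them. The total of replicate 2 was 1.0998 times that of replicate 1, but among 10 members that were at least 2-fold higher in low_Pi and had 50 or more in plus_Pi replicate 1, this ratio ran from 1.12 to 1.51 (median 1.20) and was above that of the totals in all 10. Among 12 members within 2-fold it ran from 1.07 to 1.12 and was above that of the totals in 7. The share of all genes above the ratio of the totals was not computed, so these counts have no background. The split of the members by call also used these same plus_Pi values. The part of plus_Pi replicate 2 in the results was not tested, and the larger differences are also given against each plus_Pi library.

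Many PAP and nuclease genes were higher at low phosphate, and none past the filter given here was 2-fold lower. Differences are on the scale of log2(value + 41.5), low_Pi minus plus_Pi, where 41.5 is 1 part in 1000000 of the mean column total. This scale understates the difference of genes with low values. Of the 33 members, 27 had a mean over the 4 libraries of at least 41.5. Of these 27, 15 were at least 2-fold higher in low_Pi, while 4.58% of the 18729 genes past the same filter were so. None of the 27 was at least 2-fold lower, against 4.47% of all genes. At least 4-fold higher were 13 members, against 1.45% of all genes, and 2 members, PAP17 and PAP24, were at least 16-fold higher, against 0.214% of all genes. The 16-fold count depends on the pseudocount: it was 9 members and 0.438% of all genes with 0.1 times it, and 1 member, PAP17, and 0.0961% with 5 times it. The median log2 difference was 2.00 over the 27 members and -0.26 over all genes. PAP6, PAP11, PAP14, PAP23 and PAP25 passed the filter only through low_Pi and so had to differ. Of the 22 members whose plus_Pi mean alone reached 41.5, 10 were higher and the median was 0.49, against 3.91% of all genes past that filter and a median of -0.27. Over all 33 members without a filter, 17 were higher, with PAP5 and PAP20 added, which had 0 or 1 in plus_Pi. The share of all genes without a filter was not computed, so this count has no background. An adjusted p under 0.05 from limma over the 4 columns called 17 of the 27 members higher and 4 lower, against 17.1% of all genes higher and 52% lower, but it measures only the spread between near-identical columns. Non-overlap of the groups was common, since the columns of a group are so close: both low_Pi values were above both plus_Pi values in 21.9% of all genes and below them in 62.5%. Of the 27 members, 20 lay above, 4 below and 3 overlapped, so non-overlap is given below as a description only. With bulk roots, more cells of a type and more RNA per cell cannot be told apart.

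**Figure D1:**
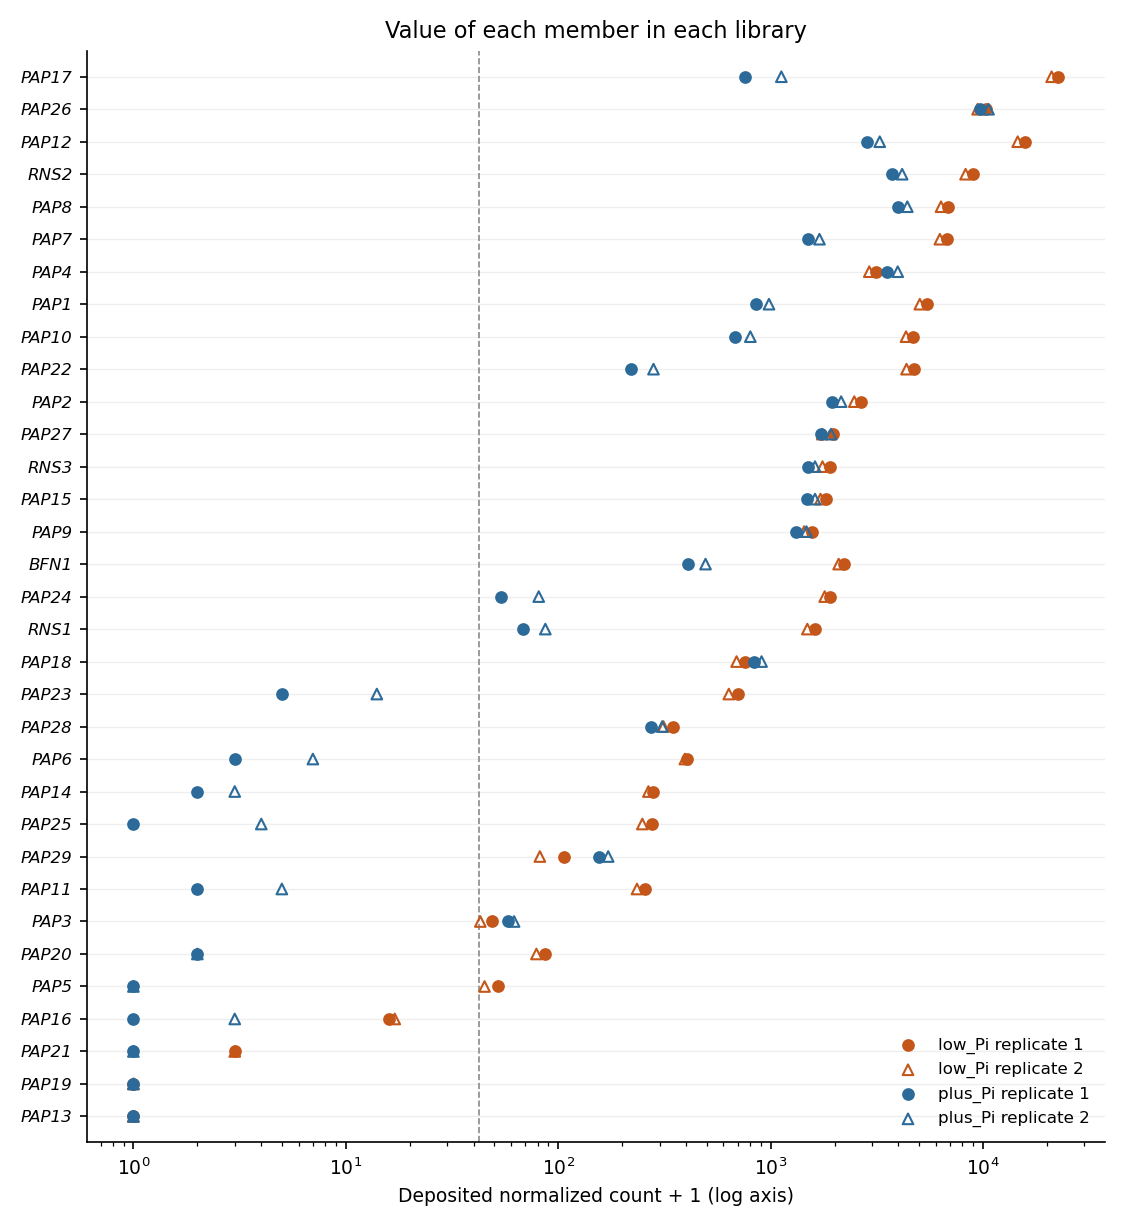
Deposited normalized count plus 1 (log axis) of all 33 members in each library, sorted by mean. Orange marks are low_Pi, blue marks are plus_Pi, circles are replicate 1, triangles are replicate 2, and the dashed line is the filter of 41.5. Members such as PAP23 and PAP6 sat near 0 in plus_Pi and between 394 and 701 in low_Pi, whereas the marks of PAP26 lie on top of each other.

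**Figure D2:**
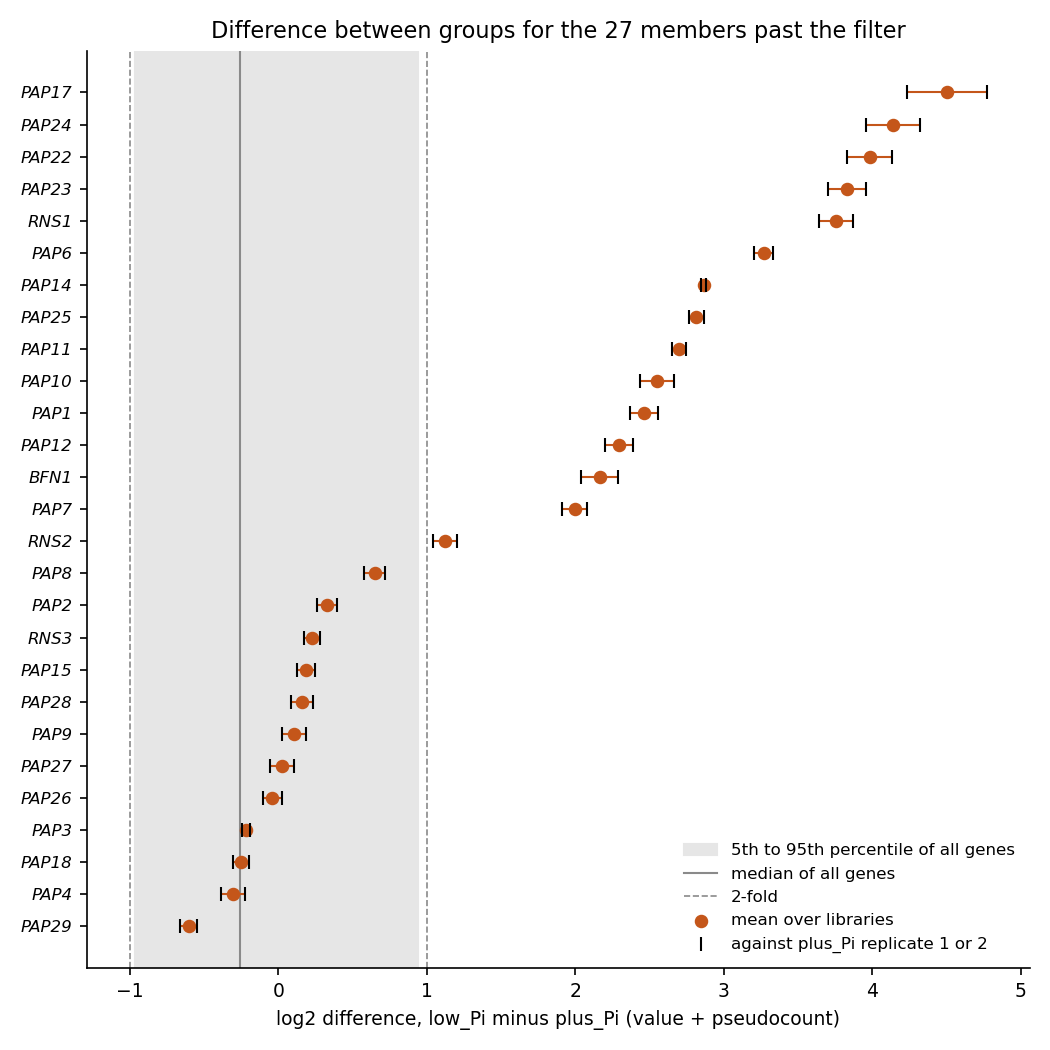
Log2 difference, low_Pi minus plus_Pi, of the 27 members past the filter. Dots are means over libraries, ticks are the differences against each plus_Pi library alone, grey shading spans the 5th to 95th percentile of all genes (-0.96 to 0.94) and dashed lines mark 2-fold. The 15 members from RNS2 upward lie right of the 2-fold line against either plus_Pi library.

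The secreted and root-surface phosphatases differed among themselves. PAP17 (AT3G17790, also ACP5), an acid phosphatase that also has peroxidase activity, reached 22680 and 21048 in low_Pi, compared with 759 and 1123 in plus_Pi. Both low_Pi values lay far above both plus_Pi values, with a mean 23.2 times as high. Its log2 difference of 4.50 was the largest of all members and the 30th largest among all genes at this pseudocount, but the 7th of the members and the 58th of all genes with 0.1 times it. It was 4.77 and 4.23 against plus_Pi replicates 1 and 2. PAP12 (AT2G27190), a major secreted acid phosphatase, had 15690 and 14574 in the low_Pi libraries against 2856 and 3265 in the plus_Pi libraries, a log2 difference of 2.29. PAP10 (AT2G16430), an acid phosphatase held at the root surface, had 4697 and 4342 against 676 and 802, a log2 difference of 2.55. The groups did not overlap for either gene. PAP26 (AT5G34850), an acid phosphatase of the vacuole that is also secreted, reached 10324 and 9435 in low_Pi, compared with 9716 and 10623 in plus_Pi. The groups overlapped for PAP26 and its log2 difference was -0.04, or 0.21 relative to the median gene. PAP26 thus had high values at both phosphate levels, where PAP10, PAP12 and PAP17 had much higher values in low_Pi.

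Another 4 PAP genes were higher, with plus_Pi values that ran from 53 in PAP24 to 1698 in PAP7. PAP22 (AT3G52820) had 4713 and 4365 in the low_Pi libraries against 219 and 280 in the plus_Pi libraries, a log2 difference of 3.98. PAP24 (AT4G24890) had 1909 and 1797 against 53 and 80, a log2 difference of 4.14 that was 4.32 and 3.96 against plus_Pi replicates 1 and 2. PAP24 and PAP22 came next after PAP17 at this pseudocount, and PAP24 had the lowest plus_Pi values of the 3. AT1G13750, which is PAP1 in the family numbering, had 5464 and 5042 against 856 and 982, a log2 difference of 2.46. PAP7 (AT2G01880) had 6743 and 6266 against 1505 and 1698, a log2 difference of 2.00 (1.996, just short of 4-fold). The groups did not overlap for any of these genes. With 5 times the pseudocount, PAP22 was at 3.38 and PAP24 at 2.91, and with 0.1 times it PAP24 was at 4.74, above PAP17 at 4.56.

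Several PAP genes were close to 0 in plus_Pi and well above it in low_Pi. PAP23 (AT4G13700), whose protein has been described as a phytase, an enzyme that releases phosphate from phytate, reached 701 and 635 in low_Pi, compared with 4 and 13 in plus_Pi. PAP6 (AT1G56360) had 401 and 394 against 2 and 6. PAP14 (AT2G46880) had 279 and 265 against 1 and 2. In all 3 genes the highest plus_Pi value was 13, while the lowest low_Pi value was 265. PAP25 (AT4G36350) had 275 and 248 in low_Pi, was listed at 0 in plus_Pi replicate 1 and had 3 in replicate 2. PAP11 (AT2G18130) had 255 and 234 against 1 and 4. The log2 differences were 3.83 for PAP23, 3.27 for PAP6, 2.86 for PAP14, 2.82 for PAP25 and 2.70 for PAP11. These sizes rest on the pseudocount. With 0.1 times it they ran from 5.26 for PAP11 to 5.83 for PAP23, and with 5 times it from 1.11 for PAP11 to 2.02 for PAP23. PAP20 (AT3G52780), with 86 and 78 against 1 and 1, and PAP5 (AT1G52940), with 51 and 44 against listed values of 0 and 0, had the same shape under the filter. The mean of PAP20 was 41.50, just below the filter of 41.53.

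The other 11 PAP genes past the filter were within 2-fold, PAP26 among them. PAP8 (AT2G01890) had 6846 and 6346 in the low_Pi libraries against 3991 and 4403 in the plus_Pi libraries, without overlap, and its log2 difference of 0.65 was the largest in this set. PAP2 (AT1G13900), which sits in the outer membranes of chloroplasts and mitochondria, had 2675 and 2477 against 1948 and 2148, a log2 difference of 0.33. PAP15 (AT3G07130), a phytase, had 1822 and 1717 against 1481 and 1618, a log2 difference of 0.19. Low_Pi values of PAP2 and PAP15 lay above the plus_Pi values by less than 2-fold. Groups overlapped for PAP9, with 1566 and 1438 against 1317 and 1475, and for PAP27, with 1958 and 1751 against 1721 and 1926. PAP28 had 347 and 312 against 274 and 308, without overlap. The log2 differences of PAP9, PAP27 and PAP28 were 0.10, 0.02 and 0.16.

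Another 4 PAP genes beside PAP26 had log2 differences below 0, none by 2-fold. AT1G25230, PAP4 in the family numbering, reached 3131 and 2915 in low_Pi, compared with 3534 and 3968 in plus_Pi, a log2 difference of -0.31. PAP18 had 757 and 691 against 834 and 906, a log2 difference of -0.25. Relative to the median gene, PAP4 was at -0.05 and PAP18 at 0.00. PAP29 had 105 and 81 against 154 and 171, a log2 difference of -0.61, the lowest of all members. PAP3 had 48 and 42 against 57 and 61, a log2 difference of -0.22, or 0.04 relative to the median gene. Among the remaining members, PAP16 had 15 and 16 in the low_Pi libraries against 0 and 2 in the plus_Pi libraries, PAP21 had 2 and 2 against listed values of 0, and PAP13 and PAP19 were listed at 0 in all 4 libraries.

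Of the 4 nuclease genes, 3 were at least 2-fold higher. RNS1 (AT2G02990), which encodes a secreted T2 ribonuclease, reached 1611 and 1489 in low_Pi, compared with 67 and 86 in plus_Pi. The groups did not overlap and the log2 difference was 3.76, which became 2.63 with 5 times the pseudocount. RNS2 (AT2G39780), which encodes a vacuolar T2 ribonuclease that turns over ribosomal RNA, had 8989 and 8281 against 3716 and 4163. Its log2 difference of 1.13 was the smallest among the 15 members that were higher, with 1.21 and 1.04 against plus_Pi replicates 1 and 2. RNS3 (AT1G26820), the third S-like ribonuclease gene, had 1904 and 1755 against 1497 and 1618, a log2 difference of 0.23. RNS1 and RNS3 have 59.0% identical residues, yet only RNS1 was past 2-fold, and the difference between them was not tested. BFN1 (AT1G11190), a nuclease gene linked to senescence and developmental cell death, had 2227 and 2091 against 408 and 493, a log2 difference of 2.17 without overlap.

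The relatives of these nucleases were mostly within 2-fold, as were most genes past the filter. The annotation gives 2 more T2 ribonuclease family genes. AT1G14220 had low_Pi values of 2812 and 2595 and plus_Pi values of 1195 and 1324, a log2 difference of 1.08 that became 0.99 with 5 times the pseudocount. AT1G14210 had 1924 and 1769 against 2887 and 3219, a log2 difference of -0.71. Per kb of coding sequence, RNS2 made up 49.3% of the summed level of these 5 T2 ribonuclease genes in low_Pi and 37.6% in plus_Pi. RNS1 made up 9.96% in low_Pi and 0.819% in plus_Pi. None of the 4 other S1-type nuclease genes, ENDO2 to ENDO5, was 2-fold apart, and ENDO5, the most abundant, had a log2 difference of -0.25. BFN1 made up 37.1% of the summed level of the 5 S1-type genes in low_Pi and 9.23% in plus_Pi.

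The makeup of the PAP transcript pool differed between the groups. Summed over the 29 genes, PAP values were 0.222% and 0.223% of the low_Pi column totals and 0.0788% and 0.0804% of the plus_Pi totals. Levels of different genes were compared as value per kb of coding sequence, which the RefSeq annotation gave for each gene. On this scale the sum was 74970 and 69404 in low_Pi against 23972 and 26970 in plus_Pi. In plus_Pi, PAP26 held the largest share at 28.0%, followed by PAP8 at 16.4%, PAP4 at 13.5% and PAP12 at 8.52%. In low_Pi, PAP17 led with 29.8%, followed by PAP12 at 14.9%, PAP26 at 9.58% and PAP7 at 9.13%. PAP8 followed at 9.07%, and the low_Pi levels per kb of PAP7 and PAP8 overlapped between libraries. PAP17 was 8th of 29 in plus_Pi, with 3.11% and 4.09% in replicates 1 and 2. Of the summed difference between the groups, 44.0% came from PAP17, 18.3% from PAP12 and 10.6% from PAP7, so that these 3 genes gave 73.0%. PAP24, PAP23, PAP6, PAP14, PAP25 and PAP11 were among the larger differences on the log2 scale, but the largest part of the summed difference from any of these was the 2.07% of PAP24.

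**Figure D3:**
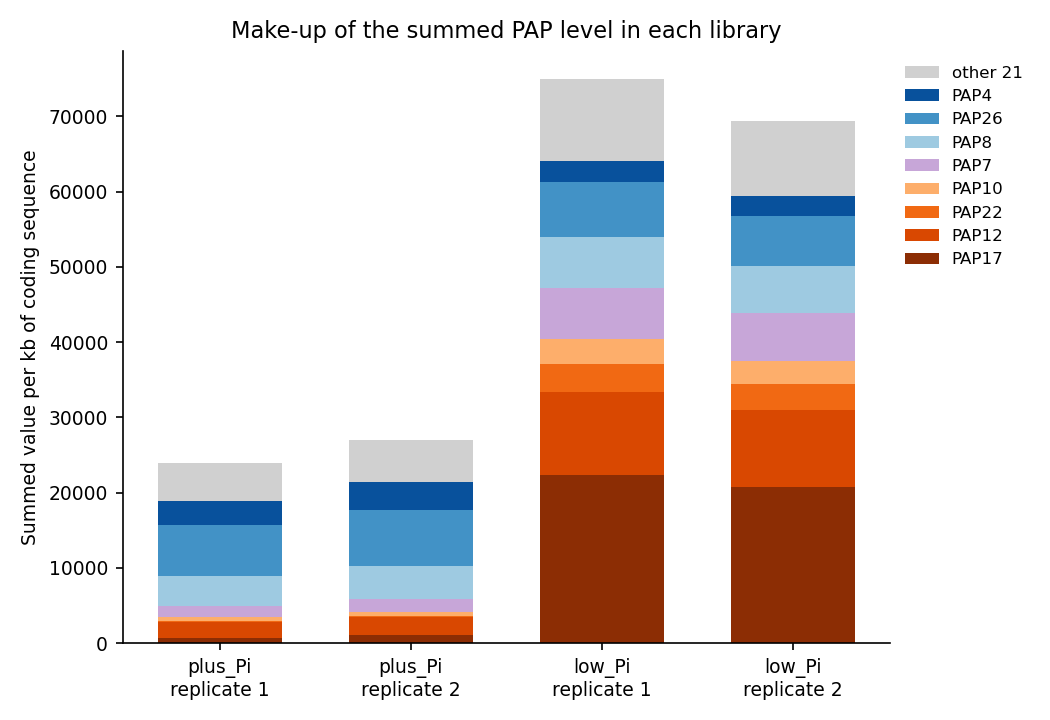
Summed value per kb of coding sequence of the 29 PAP genes in each library, split by gene, with the 21 less abundant or unnamed genes pooled in grey. The bars reach 23972 and 26970 in plus_Pi and 74970 and 69404 in low_Pi, and the PAP17 segment at the base takes 29.8% of the low_Pi bars.

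Close relatives within the PAP family did not always share the difference. Identity was computed from the translated coding sequences as a share of the shorter protein. PAP6 and PAP25, the most alike pair at 86.5%, were both near 0 in plus_Pi and both higher in low_Pi. Both passed the filter only through low_Pi and so had to differ, which leaves their likeness as a description. PAP10 and PAP12 (66.7%) were both higher, at log2 2.55 and 2.29, and PAP2 and PAP9 (73.7%) were both within 2-fold. By contrast, PAP24 and PAP27 have 78.4% identical residues, with log2 differences of 4.14 and 0.02. Their low_Pi values were close, at 1909 and 1797 for PAP24 and 1958 and 1751 for PAP27, whereas their plus_Pi values were 53 and 80 against 1721 and 1926. The coding sequences of PAP24 and PAP27 are of nearly the same length (1848 and 1836 bases), so these 2 genes had about the same level per length in low_Pi and differed in plus_Pi. The phytase genes PAP15 and PAP23 (60.5%) were likewise at 0.19 and 3.83, though PAP23 also passed the filter only through low_Pi. PAP11 and PAP19 (85.8%) differed in that PAP19 was listed at 0 throughout. The 5 members with 328 to 366 residues, PAP3, PAP4, PAP7, PAP8 and PAP17, included 2 that were higher, and so did the 5 members with 611 to 656 residues. Of the 13 other PAP members past the filter, 8 were higher. These include PAP6, PAP11, PAP14, PAP23 and PAP25, which passed it only through low_Pi. Of all genes past the filter, 4.58% were 2-fold higher. The longest run of identical coding bases between 2 PAP genes or 2 nuclease genes was 62, for PAP11 and PAP19. Reads within such runs could have been assigned to either gene. Pairs of a PAP gene and a nuclease gene were not compared.

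**Figure D4:**
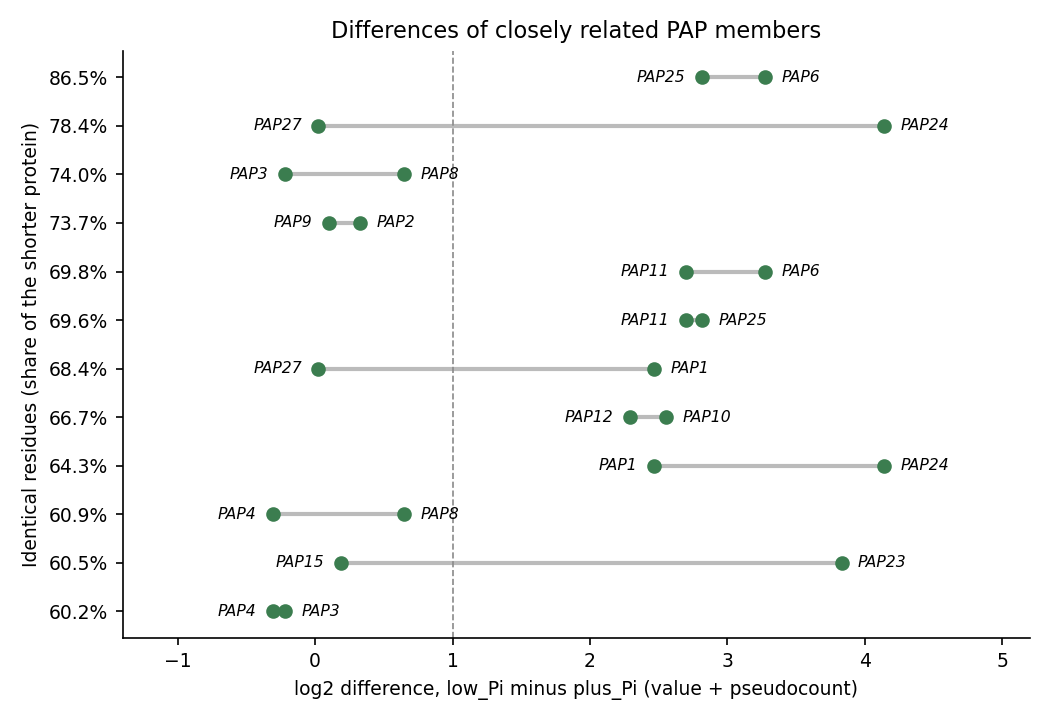
Log2 differences of the 12 pairs of PAP members with at least 60% identical residues in which both genes passed the filter, one pair per line, labelled with the identity. Long lines such as PAP24 with PAP27 (4.14 and 0.02) and PAP15 with PAP23 (0.19 and 3.83) are close relatives with unlike differences, and short lines such as PAP6 with PAP25 are relatives with similar ones. A gene with several relatives appears more than once. PAP6, PAP11, PAP23 and PAP25 passed the filter only through low_Pi and so had to differ. Pairs with a gene under the filter, such as PAP11 with PAP19, are left out.

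Neighbouring genes on the chromosome also differed. On chromosome 3 of TAIR10.1, PAP20, PAP21 and PAP22 lie near each other on the minus strand. PAP20 and PAP21 are 6610 bases apart. PAP21 at 19570961 to 19573733 and PAP22 at 19573916 to 19577141 are only 182 bases apart. PAP22 had 4713 and 4365 in low_Pi while PAP21 had 2 and 2, although the 2 proteins have 72.1% identical residues. On chromosome 2, PAP7 (391421 to 394184) and PAP8 (396756 to 399338) lie 2571 bases apart on the minus strand. PAP7 was at log2 2.00 and PAP8 at 0.65, and their low_Pi values were similar while the plus_Pi value of PAP8 was higher.

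The PHR1 binding motif, written GNATATNC and known as P1BS, was searched from 250 bases before to 50 bases after the annotated start of each gene. The motif is its own reverse complement, so 1 search covers both strands, and no other motif was searched. It was present in 15 of 33 members (45.5%) and in 1716 of 27443 genes of the table with a coding annotation (6.25%). Among the 15 members that were higher in low_Pi, 10 held it, and among the 12 members within 2-fold, PAP8 alone did. These 10 include PAP6, PAP11, PAP14, PAP23 and PAP25, which passed the filter only through low_Pi and so had to differ. The 2 counts are thus a description and no comparison of like sets. The 6 members under the filter included 4 that held it. Within 1000 bases before the start, a window chosen after seeing the data, the motif stood in 8 of the 15 higher members, in 7 of the 12 members within 2-fold and in 20.3% of all genes. In those 7 members the match lay 659 to 910 bases before the start, except in PAP8, where it lay 145 bases before it. In PAP12, RNS1 and PAP16 the match lay 32, 20 and 33 bases after the start, and PAP17, PAP22, PAP10, PAP7 and BFN1 had none in either window. Close relatives share sequence by descent, so members are not independent, and a match of letters is neither a binding site nor a cause.

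**Figure D5:**
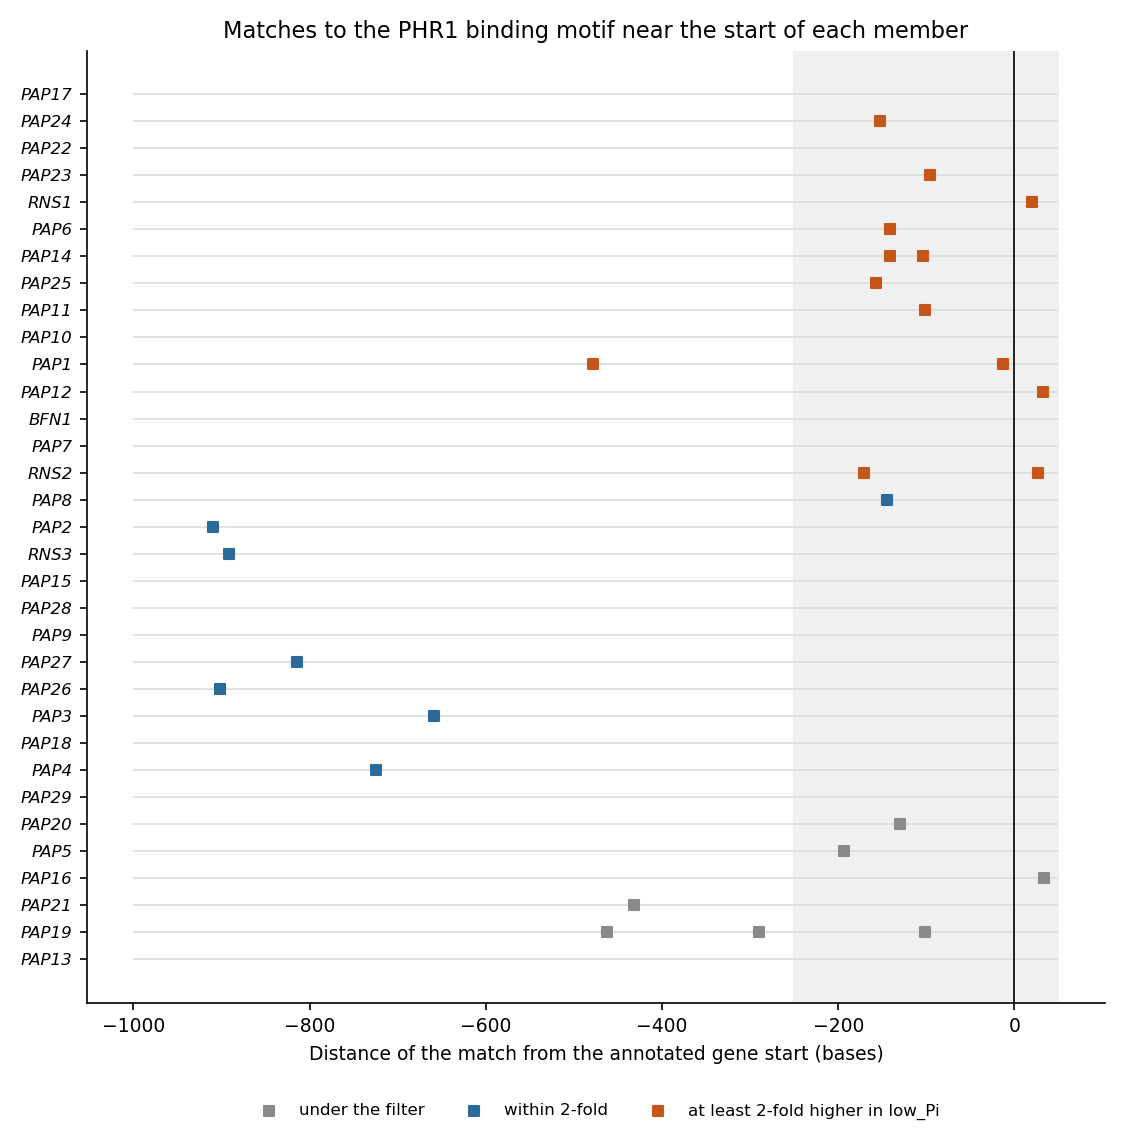
Position of each match to the PHR1 binding motif relative to the annotated gene start, from 1000 bases before to 50 bases after it, with 1 line per member. Members are sorted by log2 difference from PAP17 at the top, with the 6 members under the filter at the bottom, and shading marks the window from 250 before to 50 after the start. Of the 15 higher members, 10 have an orange square in the shaded window, and PAP17, PAP22, PAP10, PAP7 and BFN1 have none at all. The blue squares of members within 2-fold lie left of the window, except that of PAP8. Among the orange members, PAP6, PAP11, PAP14, PAP23 and PAP25 passed the filter only through low_Pi and so had to differ. The 2 colours are thus no comparison of like sets.

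The upstream stretches of the close relatives PAP5, PAP6, PAP11 and PAP25 are shown because these genes were near 0 in plus_Pi, and that of PAP19 because it holds the motif while the gene was listed at 0. Each is 80 bases, read 5′ to 3′ on the gene's strand from the TAIR10.1 genome, with the motif in capitals. Genes were matched by identifier, since the build the authors used is not given in the sources used here. PAP5 is at chr1:19716173-19716252 on the plus strand. PAP11 is at chr2:7883993-7884072, PAP19 at chr3:16939824-16939903, PAP6 at chr1:21100940-21101019 and PAP25 at chr4:17175971-17176050, all on the minus strand.
PAP5: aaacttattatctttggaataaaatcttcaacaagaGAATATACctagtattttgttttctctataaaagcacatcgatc
PAP11: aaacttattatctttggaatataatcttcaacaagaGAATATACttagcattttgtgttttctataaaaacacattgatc
PAP19: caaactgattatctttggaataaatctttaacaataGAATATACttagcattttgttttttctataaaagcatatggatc
PAP6: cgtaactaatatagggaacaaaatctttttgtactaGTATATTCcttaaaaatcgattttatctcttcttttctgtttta
PAP25: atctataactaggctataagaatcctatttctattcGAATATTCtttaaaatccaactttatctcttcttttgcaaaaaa

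The stretches of PAP5 and PAP11 had 73 identical bases, those of PAP11 and PAP19 had 72, and those of PAP6 and PAP25 had 54. The same motif letters therefore stood in PAP11, with 255 and 234 in low_Pi, in PAP5, with 51 and 44, and in PAP19, with 0 and 0. The motif began 101 bases before the start in both PAP11 and PAP19, and 193 bases before it in PAP5.

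Upstream stretches of 4 more members are shown, to set the motif beside sequence from less closely related genes. PAP14 held 2 matches, 141 and 104 bases before its start, at chr2:19266517-19266633 on the minus strand. PAP24 (chr4:12814566-12814645) and PAP23 (chr4:7958972-7959051) are on the minus strand, and RNS2 (chr2:16590910-16590989) is on the plus strand.
PAP14: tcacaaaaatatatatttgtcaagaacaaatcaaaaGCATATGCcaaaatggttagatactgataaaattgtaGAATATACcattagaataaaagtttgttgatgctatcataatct
PAP24: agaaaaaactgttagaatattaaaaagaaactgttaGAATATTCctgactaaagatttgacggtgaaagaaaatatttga
PAP23: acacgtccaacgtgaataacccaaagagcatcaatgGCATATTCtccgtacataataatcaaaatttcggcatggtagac
RNS2: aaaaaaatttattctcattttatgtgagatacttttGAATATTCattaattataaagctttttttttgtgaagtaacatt

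The form GAATATTC stood within 250 bases before to 50 bases after the start in 5 members, and so did GAATATAC in 5 members. RNS2 and PAP24 carry the same 8 letters, at 171 and 153 bases before their starts, with log2 differences of 1.13 and 4.14.

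Genes that act around these enzymes were within 2-fold, as were most genes. Of all genes past the filter, 4.58% were 2-fold higher and 4.47% were 2-fold lower, so counts of none are near that share. None of 8 nucleoside salvage genes past the filter, which recover the bases and nucleosides left after phosphate is removed, was 2-fold apart, with a median log2 difference of -0.05. The 2 most abundant, the adenosine kinase gene ADK1 and the nucleoside hydrolase gene NSH3, were at 0.03 and -0.66. The apyrase genes APY1 and APY2, which split nucleoside di- and triphosphates, were at -0.05 and -0.07. None of 4 regulator genes was 2-fold apart, including PHR1 at -0.57, whose values were 1619 and 1486 in low_Pi, compared with 2225 and 2423 in plus_Pi, and its relative PHL1 at -0.43. ZAT6, a zinc finger gene named after its values were seen, lay in the other direction at 0.68, with 1260 and 1174 against 705 and 786. The remaining regulator gene, WRKY75, also named after its values were seen, was at -0.66, and the median of the 4 was -0.50.

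Root cell type markers were present and some moved with the members. All 11 markers of root hair, endodermis, cortex, xylem, phloem and root cap passed the filter. The 3 root hair markers were all at least 2-fold higher, COBL9 at log2 1.63, EXPA7 at 1.67 and PRP3 at 2.67, with summed values of 38449 and 35524 in low_Pi and 6825 and 7885 in plus_Pi. Their part in the PAP and nuclease differences was not tested. The other markers moved less or not with the members. CASP1 and SCR of the endodermis were at 0.56 and -0.45, AT1G62500 of the cortex at -0.79 and APL of the phloem at 0.08. The root cap gene SMB was lower at -1.08, or -0.84 with median-of-ratios scaling. The 3 xylem markers were within 2-fold, XCP1 at 0.04 and XCP2 at 0.34, with summed values of 18078 and 16584 against 14264 and 15767. Beside BFN1, 6 genes listed as markers of developmental cell death had a median of 0.56, and CEP1, a cysteine endopeptidase gene, was the 1 past 2-fold, with 442 and 414 against 67 and 72. All 6 were above 0, and the most abundant, the serine carboxypeptidase-like gene SCPL48, named after its values were seen, was just short of 2-fold at 0.97, with 11401 and 10564 against 5319 and 5872. Their part in the BFN1 difference was not tested. Of 4 senescence markers, SAG12 was listed at 0 in all libraries, and the 2 past the filter, SAG13 and ORE1, were at -0.87 and 0.35. The 3 green tissue markers were within 2-fold, RBCS1A at -0.82 and the light-harvesting gene LHCB1.1 at -0.33, with summed values of 1347 and 1240 in low_Pi against 1846 and 1970 in plus_Pi.

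Some members overlap a gene on the opposite strand in the annotation, and the protocols do not mention strand. PAP24 shares 392 bases with AT4G24880, which had 462 and 427 in low_Pi and 596 and 650 in plus_Pi. PAP17 shares 122 bases with AT3G17800, which had 1417 and 1320 against 1786 and 1931. PAP16 shares 56 bases with AT3G10140, whose mean of 506.75 compares with 8.25 for PAP16. If strand was not used in counting, reads from the shared stretches cannot be assigned to 1 gene of a pair, which bears most on the low plus_Pi values of PAP24 and on all values of PAP16. Whether this happened was not tested.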

How the data were processed

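Roots of 2 groups with 2 libraries each were measured by RNA sequencing after oligo(dT) selection, per the labels' protocols. Tools named, without roles, in the submitters' processing notes are edgeR, HTSeq, HISAT2, FastQC and CASAVA 1.4. The genome build is not given in the sources used here. The authors deposited 1 table of 27655 genes called normalized counts, and its whole-number values are treated as a score here because the normalization the authors used is not stated. Read depth is unknown, so no count model was fitted and no counting interval was computed. For low_Pi replicate 2 the column name gave the group but matched no single title, so it is numbered as the column is.

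Differences are mean log2(value + 41.5) of low_Pi minus plus_Pi, for genes with a mean of at least 41.5, called at 2-fold. Taken as read counts, the columns of a group differ, on average over genes, by less than sampling noise, though PAP17 differs by more in plus_Pi. The 2-fold size rule therefore stands in place of a test. As alternatives, limma 3.58.1 in R 4.3.3 was run over all genes past the filter with Benjamini-Hochberg adjustment, and scalings, pseudocounts, filters, fold sizes and left-out libraries were varied. The steps were tested on simulated data. Coding lengths, translated identity (Biopython 1.88, BLOSUM62 global alignment) and upstream sequence came from RefSeq TAIR10.1, which matched 27445 identifiers. All members were to be described, with values in every library for those past the filter. From each surrounding list, members 2-fold apart were named, or the 2 most abundant where none was. The members and lists were chosen with earlier results of these data known.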

Additional observations from a re-analysis of the deposited data

How the results depend on the processing

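All 15 members that were at least 2-fold higher stayed so with 0.1 or 5 times the pseudocount, with median-of-ratios, trimmed-mean or common-total scaling, with linear group means and without any 1 library. For PAP6, PAP11, PAP14, PAP23 and PAP25, which passed the filter only through low_Pi, the call was fixed in advance unless the pseudocount was raised. Leaving out 1 of 2 near-identical columns could hardly change a call, so it is no replicate check. No other member past the filter reached 2-fold under these settings. The median log2 difference of members (2.00) was 1.11 with 5 times the pseudocount, 1.099 without a filter (33 members), 1.13 with 5 times the filter (21 members), and 2.27 with either median-of-ratios or trimmed-mean scaling. Under these 2 scalings the median of all genes went from -0.26 to 0.00. The members' median ran from 1.91 to 2.08 without 1 library. Of the 15 members, 8 moved by over 1.5-fold with another pseudocount and none when 1 library was omitted. The number higher was 16 at 1.5-fold and 13 at 4-fold, and the number lower (0) was 1 at 1.5-fold (PAP29). With 5 times the filter, 11 of 21 members were higher. The share of all genes at 1.5-fold or with that filter was not computed.

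The limma fit over near-identical columns called 17 members higher and 4 lower, and 16 and 1 with the replicate block, which called 10.5% of all genes higher and 28.0% lower. The labels do not say that a number marks a batch, and the correlation of deviations between columns with the same number was -0.11 over all genes past the filter. With the numbers of low_Pi crossed in the replicate block, an alternative chosen after seeing the data, it was 21 and 5, but that fit called 25.3% of all genes higher and 67.8% lower. The motif stood in 12 members when only the 250 bases before the start were searched and in 19 with 1000 bases. Without division by coding length, PAP17 made up 24.3% of the summed PAP values in low_Pi and remained first, and PAP26 remained first in plus_Pi.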
